A study of Callithrix jacchus with 39 samples.

Results

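The regions described here carried H3K4me3, a histone methylation found mainly at promoters, in all 8 tissues profiled in the marmoset Callithrix jacchus, a New World primate, but carried reproducible H3K27ac, an acetylation of active promoters and enhancers, in 2, 3 or 4 of them. They numbered 1604, which is 2.46% of a catalogue of 65161 H3K27ac regions and 12.8% of the 12538 catalogue regions with H3K4me3 in all 8 tissues. The catalogue was made by keeping, in each tissue, the H3K27ac peaks overlapped by at least 1 bp in the other replicate and merging them over tissues. A region is called acetylated in a tissue where such kept peaks overlapped it. H3K4me3 counted for a tissue where a peak of at least 1 library overlapped the region. The regions were thus chosen by the presence of peaks of both marks in these same lists, and counts that follow from this choice are given as a description.

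The ChIP-seq libraries came from organs of digestion (stomach, pancreas, liver, colon), striated muscle (heart, skeletal muscle), kidney and spleen. Each tissue had 2 numbered replicates per mark, but for H3K4me3 in heart, of which replicate 2 alone was used here. The labels give no strain, age, sex or treatment, and they do not say whether the replicates came from different animals, so the spread between replicates may be technical. The 16 H3K27ac lists held 24590 to 51554 peaks and the 15 H3K4me3 lists 16386 to 24424. Read depth is unknown, and a region without a peak may still hold signal too weak to be called. The 8 input samples were not analysed here. The tissues are bulk samples, in which fewer cells carrying a mark and less of the mark per cell cannot be told apart. No gene annotation of the files' genome build, calJac3, was used here, so regions are given by position, no region was assigned to a gene, and the tissue labels were not checked against marker genes.

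H3K4me3 is laid down around the start sites of genes by methyltransferase complexes and is found at promoters with high CpG content in most cell types, also where transcription is low. H3K27ac is written by the acetyltransferases p300 and CBP, is removed by deacetylases, and follows the activity of promoters and enhancers more closely. A promoter that keeps H3K4me3 while its acetylation differs between organs is therefore a place where the 2 marks can be compared within the same region.

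Among regions with H3K4me3 in all 8 tissues, acetylation in few tissues was the less common state. The 1604 regions comprised 514 acetylated in 2 tissues, 521 in 3 and 569 in 4. Another 619 were acetylated in 1 tissue, 3249 in 5 to 7 and 7066 in all 8. Of the catalogue regions that met H3K4me3 in any library, the share with H3K4me3 in all 8 tissues was 19.7% at 2 tissues, 29.6% at 3 and 40.5% at 4, against 95.6% at 8. The regions had a median length of 1192 bp (5th to 95th percentile 585 to 3241 bp), and regions of more tissues were longer, with a median of 727 bp at 1 tissue and 2058 bp at 8. Merging over tissues can lengthen a region, and the H3K27ac peaks of single lists were also longer at 8 tissues (1174 bp) than at 1 (540.0 bp).

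**Figure D1:**
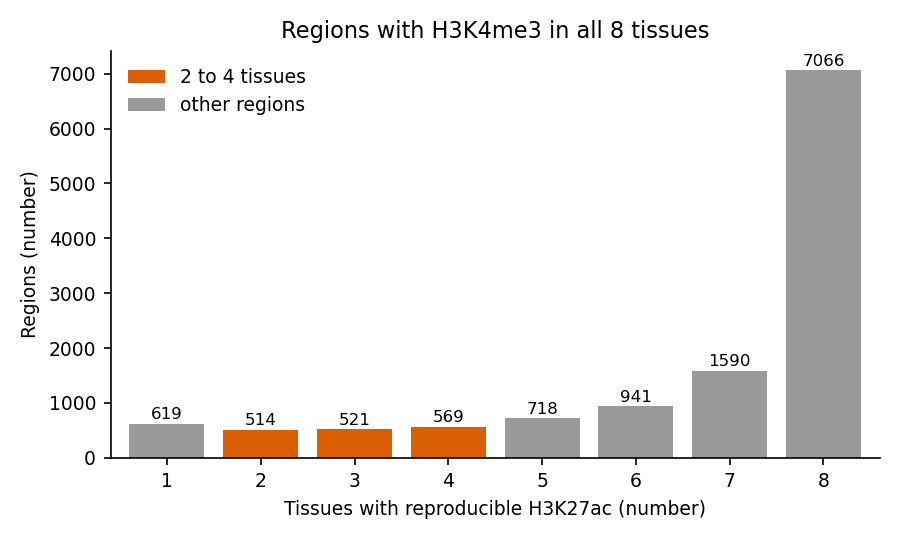
Number of catalogue regions with H3K4me3 in all 8 tissues (y axis) by the number of tissues with reproducible H3K27ac (x axis), with the 2- to 4-tissue regions in orange. The orange bars hold 514, 521 and 569 regions, and the bar of all 8 tissues holds 7066.

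The H3K27ac lists went against reading these regions as acetylated in few tissues alone. Over the 1604 regions and 8 tissues there were 12832 combinations of region and tissue, of which 4867 were acetylated and 7965 were not. In 4199 of those 7965 (52.7%) an H3K27ac peak of the same tissue did overlap the region but was not matched in the other replicate. In 158 of the 4199 both replicates had a peak in the region and the peaks did not meet. When a peak in any list was enough, 30 of the 1604 regions had H3K27ac in 2 tissues, 112 in 3 and 218 in 4, while 350 had it in 5, 382 in 6, 340 in 7 and 172 in all 8. Only 80 regions (4.99%) had no H3K27ac peak in either list of every tissue that was not counted. Such regions numbered 88 of the 619 acetylated in 1 tissue and 408 of the 3249 acetylated in 5 to 7. The share of combinations with an unmatched peak, 52.7% here, was 33.1% for regions acetylated in 1 tissue and 73.9% for those acetylated in 5 to 7. The regions are therefore called 2- to 4-tissue regions below, after the rule.

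Liver, pancreas and colon were the tissues in which most 2- to 4-tissue regions were acetylated. In liver 879 of the 1604 were acetylated, where 47.0% of the whole catalogue was. Pancreas had 864 (catalogue 32.7%), colon 761 (36.7%) and stomach 618 (29.1%). Skeletal muscle had 493 (33.0%), heart 470 (21.5%), kidney 420 (27.3%) and spleen 362 (28.8%). As the rule used these peaks, the shares are a description of the regions.

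Spleen and skeletal muscle stood at the other end, with 789 and 682 regions that had no H3K27ac peak in either list. Liver had 184 such regions and pancreas 230. Kidney had the most regions with an unmatched peak, 746, and heart followed with 646. In kidney these came mostly from 1 replicate: 670 of the 746 regions had a peak in replicate 2 and 101 in replicate 1, although the lists were of similar length (31674 and 32794 peaks). In liver 507 of 541 had a peak in replicate 2 and 41 in replicate 1, and in heart 519 of 646 against 169. Over all 1604 regions, kidney replicate 2 had a peak in 1090 and replicate 1 in 521, whereas the spleen replicates had 579 and 606. The regions not counted in kidney, liver and heart thus mostly lacked the peak of replicate 1.

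**Figure D2:**
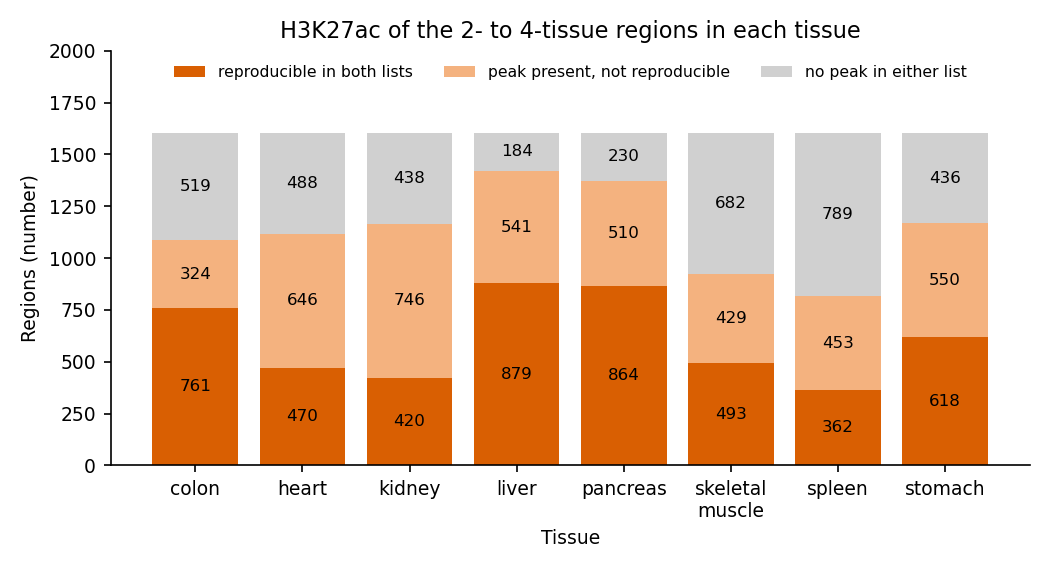
Number of the 1604 regions (y axis) in each tissue (x axis) with reproducible H3K27ac, with an H3K27ac peak that was not reproducible, and with no H3K27ac peak in either list. Kidney has the largest middle part with 746 regions, and spleen the largest upper part with 789.

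All 28 possible pairs of tissues occurred among the 514 regions acetylated in 2 tissues. The most frequent were colon with liver (59 regions, 11.5%), liver with pancreas (46, 8.95%) and colon with stomach (43, 8.37%). Heart with skeletal muscle, the striated muscle tissues, followed with 29 regions (5.64%). Among the 521 regions of 3 tissues, colon with pancreas and stomach led with 46, followed by colon with liver and pancreas (38) and colon with liver and stomach (36). Among the 569 of 4 tissues, colon with liver, pancreas and stomach led with 55. Next came colon with kidney, pancreas and stomach (36) and colon with liver, skeletal muscle and stomach (30). Over all 2- to 4-tissue regions, 52.2% of the colon regions were also acetylated in liver, against an overall share of 54.8%. For liver regions in pancreas the shares were 48.8% and 53.9%, and for colon regions in stomach 50.5% and 38.5%. The combinations were not compared with the catalogue or with the tissue totals, and were not tested.

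Liver and pancreas, the tissues with most acetylated regions, shared 429, which is 48.8% of the liver and 49.7% of the pancreas regions, both below the overall shares of 53.9% and 54.8%. As a share of the regions of 1 tissue, the largest overlap was that of stomach with colon. Of the 618 regions acetylated in stomach 384 (62.1%) were also acetylated in colon, where 47.4% of all 1604 were. The 384 are 50.5% of the colon regions, against 38.5% of all 1604 acetylated in stomach. Heart and skeletal muscle shared 166 regions, 35.3% of the heart regions and 33.7% of the skeletal muscle regions, against overall shares of 30.7% and 29.3%. Spleen and skeletal muscle shared the fewest, 57 regions, or 15.7% and 11.6% of each. Of the spleen regions 203 (56.1%) were also acetylated in pancreas and 196 (54.1%) in liver, near the 53.9% and 54.8% of all 1604. A limit of 4 tissues makes tissues exclude each other, so these shares describe the regions and were not tested.

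**Figure D3:**
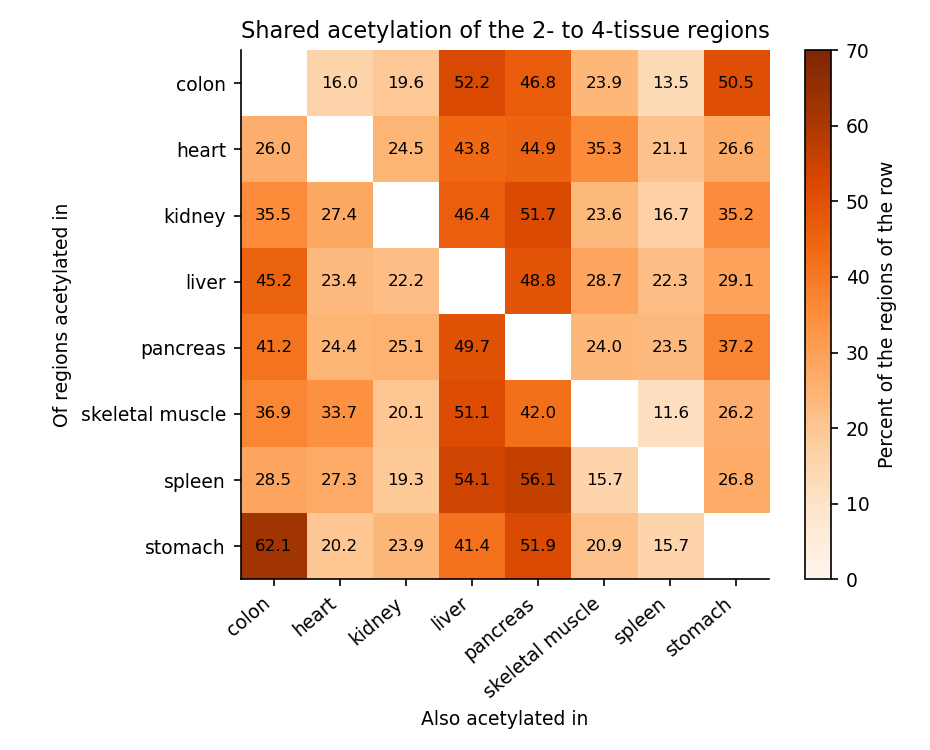
Percent of the 2- to 4-tissue regions acetylated in the tissue of the row (y axis) that were also acetylated in the tissue of the column (x axis), by colour and printed value. The highest value is 62.1% (stomach regions also acetylated in colon) and the lowest 11.6% (skeletal muscle regions also acetylated in spleen).

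H3K4me3 at the 2- to 4-tissue regions was weaker and narrower than at regions acetylated in all 8 tissues. Strength is given as the percentile of the authors' fold enrichment within its own peak list, where 100 is the strongest peak, because fold enrichment is comparable only within 1 list. The median percentile of the 2- to 4-tissue regions was 51.7 in colon, 40.9 in heart, 50.8 in kidney, 50.1 in liver, 46.8 in pancreas, 49.8 in skeletal muscle, 41.0 in spleen and 54.3 in stomach. In the regions of all 8 tissues it lay between 75.7 (spleen) and 80.8 (liver), so the medians of the classes did not overlap. The means over tissues were 48.2 ± 4.92 and 77.8 ± 1.77 (SD, n = 8), a difference of -29.7 ± 3.68 percentile points with the same sign in 8 of 8 tissues. A sign-flip permutation test over the tissues, two-sided and exact, gave p = 0.00781 and an adjusted p of 0.0125. The value 0.00781 is the smallest p that 8 tissues allow, and adjustment covers the 8 planned tests. The longest H3K4me3 peak at a region had a median of 803 ± 113 bp against 1276 ± 154 bp, with a mean difference of -473 ± 62.7 bp that had this sign in each of the 8 tissues (same test, exact p = 0.00781, adjusted p = 0.0125). Regions of all 8 tissues are longer and can meet more peaks, and with the marks read from the central 300 bp of each region the differences were -28.2 points and -458 bp.

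Presence of H3K4me3 in every tissue did not mean presence in every library. Of the 1604 regions 842 (52.5%) had an H3K4me3 peak in all 15 libraries and 354 in 14, and the lowest number was 9. The share with all 15 rose with the number of acetylated tissues, from 46.1% at 2 to 58.5% at 4 and 95.3% at 8. The libraries that missed most of the regions were pancreas replicate 1 (1285 regions with a peak), skeletal muscle replicate 1 (1287), spleen replicate 1 (1305) and colon replicate 1 (1363), and the other 11 each met at least 1555. The first 3 of these had the shortest H3K4me3 lists, 16386, 16850 and 16946 peaks. Heart met all 1604 by the rule, as its single library had to.

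Within the same tissue, the regions acetylated there had stronger H3K4me3 than the regions acetylated only elsewhere. This comparison sets regions of the same class against each other within the same list, and the rule asked for H3K4me3 in every tissue alike. Regions without an H3K4me3 peak in a library were left out of its medians of strength and length, here and in the comparison above. In colon replicate 1 the medians rest on 735 of 761 acetylated and 628 of 843 other regions. In colon the median percentile was 60.3 in acetylated and 43.0 in other regions, the widest gap. Liver had 56.2 and 42.7, heart 47.8 and 38.6, skeletal muscle 55.2 and 46.9, and stomach 58.7 and 51.4. The gap was smaller in kidney (54.7 and 49.4), pancreas (48.9 and 45.3) and spleen (43.6 and 40.3). The acetylated regions were higher in 8 of 8 tissues and in each of the 15 libraries. The means were 53.2 ± 5.80 and 44.7 ± 4.42 (SD, n = 8), with a difference of 8.47 ± 4.89 percentile points (same exact permutation test, p = 0.00781, adjusted p = 0.0125). Taken over the 80 regions without unmatched H3K27ac peaks elsewhere, the difference was 15.9 ± 12.5 points (exact permutation test, n = 8, p = 0.0156). Few regions stand behind its medians: 7 of the 80 were acetylated in spleen and 18 in heart, up to 46 in pancreas.

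H3K4me3 was also broader where the region was acetylated. The median length of the longest H3K4me3 peak was 1049.5 bp in regions acetylated in kidney and 782 bp in the others, and 1030.5 bp against 775 bp in colon. The narrowest gaps were 812 bp against 759.5 bp in skeletal muscle and 824 bp against 756 bp in pancreas. Over tissues the lengths were 902 ± 133 bp and 751 ± 94.1 bp (SD, n = 8), and the difference of 151 ± 77.5 bp was positive in 8 of 8 tissues (same exact permutation test, p = 0.00781, adjusted p = 0.0125). In the 80 regions without unmatched peaks, with as few as 7 acetylated in a tissue (spleen), it was 399.9 bp (exact permutation test, n = 8, p = 0.00781).

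Replicate support for H3K4me3 was also higher where the region was acetylated. The rule itself used the presence of these peaks, in at least 1 library of every tissue. This comparison is therefore not independent of the choice of regions. In colon 96.6% of acetylated regions had H3K4me3 in both libraries, against 73.7% of the others, and in spleen 87.6% against 75.9%. In skeletal muscle the shares were 84.4% and 77.0%, in liver 98.7% and 92.6%, and in pancreas 81.2% and 78.2%. Stomach (98.1% and 97.0%) and kidney (95.2% and 94.3%) had the least difference. The mean difference was 7.60 ± 7.75 percentage points in the 7 tissues with replicates (exact permutation test, p = 0.0156, adjusted p = 0.0208), where 0.0156 is the smallest p possible. Colon carried much of it: without colon H3K4me3 replicate 2 the mean over the 6 tissues left was 4.79 points (exact permutation test, p = 0.0625), without pancreas H3K4me3 replicate 2 it was 7.36 points (p = 0.0625), and on lists cut to their 20000 strongest peaks it was 4.29 points (exact permutation test, n = 7, p = 0.0156).

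Regions with an unmatched H3K27ac peak lay between the acetylated regions and those with no peak in H3K4me3 strength. The comparison of these states was chosen after the data were seen, and its p-values are not adjusted. In liver the median percentile was 33.6 with no H3K27ac peak, 45.8 with an unmatched peak and 56.2 with reproducible acetylation. In heart it was 35.1, 44.1 and 47.8, and in colon the unmatched state lay between 37.9 and 60.3. Kidney (47.8, 50.5, 54.7), pancreas (42.1, 46.0, 48.9), skeletal muscle (44.9, 49.6, 55.2) and stomach (49.2, 54.1, 58.7) had the same order. Spleen did not, with 36.9, 46.0 and 43.6. Over tissues the unmatched state exceeded no peak by 7.34 ± 3.77 percentile points in 8 of 8 tissues (exact permutation test, n = 8, p = 0.00781), and the acetylated state exceeded the unmatched one by 4.90 ± 4.12 points in 7 of 8 (exact permutation test, n = 8, p = 0.0156).

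**Figure D4:**
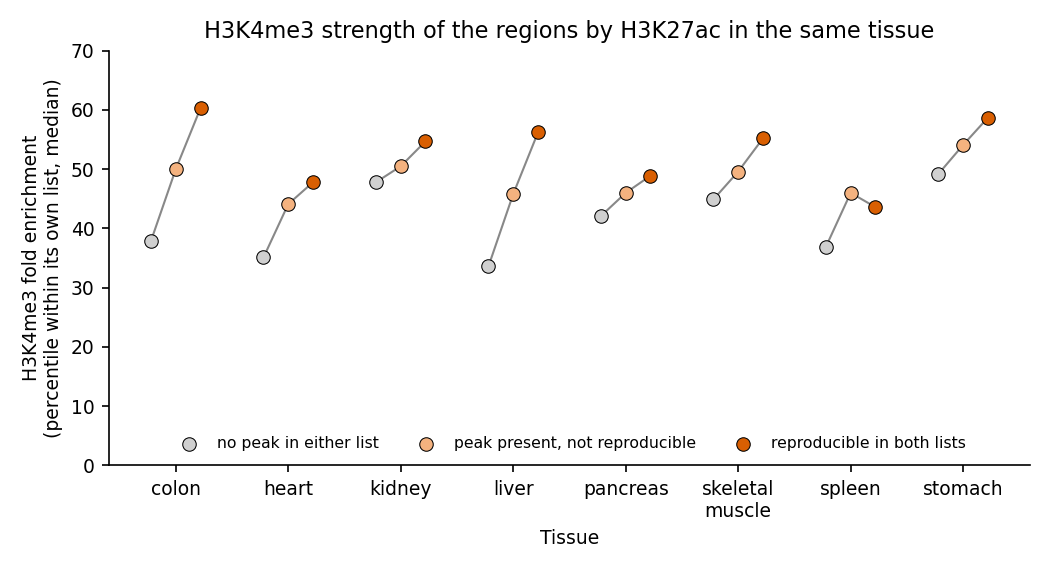
Median H3K4me3 percentile within its own list (y axis, mean over the libraries of the tissue) of the 1604 regions in each tissue (x axis), split by the state of H3K27ac in the same tissue. The points rise from no peak to reproducible H3K27ac in 7 tissues, from 37.9 to 60.3 in colon, and in spleen the middle point (46.0) is the highest.

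Region by region, 1241 of the 1604 (77.4%) had a higher mean H3K4me3 percentile in their acetylated tissues than in the other tissues, after each list was centred on the median of all regions with H3K4me3 in 8 tissues. Over all such regions acetylated in 1 to 7 tissues the share was 71.8%. The counts were 397 of 514 regions at 2 tissues, 411 of 521 at 3 and 433 of 569 at 4. In 148 regions (9.23%) every acetylated tissue lay above every other tissue, where the background over 1 to 7 tissues was 17.8%, and in 14 (0.873%) every acetylated tissue lay below, where it was 3.58%. These shares depend on how the 8 tissues are divided, which differs between the classes.

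In regions acetylated in 5 to 7 tissues, the gap in H3K4me3 strength between acetylated and other regions was 10.1 ± 5.78 percentile points (SD, n = 8). The gap of the 2- to 4-tissue regions minus this one was -1.58 ± 1.60 points, with the same sign in 6 of 8 tissues (exact permutation test, n = 8, p = 0.0312, adjusted p = 0.0357). This difference did not hold up: on assembled chromosomes alone it was -1.42 points (exact permutation test, n = 8, p = 0.117), and on lists cut to their 20000 strongest peaks -0.356 points (p = 0.742). It passed in 18 of 31 analyses that each left out 1 library, and was smallest without spleen H3K27ac replicate 2 (-0.827 points, exact permutation test, p = 0.203) and without spleen H3K27ac replicate 1 (-0.943, p = 0.289).

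The H3K4me3 peak sat within the region in most cases, in acetylated and in other tissues. Its summit, the position of highest signal that the authors deposited, lay inside the region in 97.7 ± 0.580% of acetylated regions with a peak and in 97.0 ± 0.885% of the others (SD, n = 8). The difference of 0.676 ± 0.870 percentage points did not pass the test (exact permutation test, n = 8, p = 0.0625, adjusted p = 0.0625). This call rested on single libraries. It passed, at unadjusted p between 0.00781 and 0.0469 in the same exact permutation test, without any 1 of these H3K27ac libraries: either replicate of colon, heart or stomach, or replicate 1 of liver or spleen. It also passed without H3K4me3 of heart replicate 2, pancreas replicate 1, skeletal muscle replicate 1 or spleen replicate 2. Across the 15 libraries the summits of 1 region deviated from their median position by 58.5 bp (median over regions), and in 76.6% of regions by at most 100 bp. In regions of all 8 tissues the deviation was 49.0 bp. The summits of H3K27ac and H3K4me3 in an acetylated tissue lay 127 bp apart (median over the 16 H3K27ac lists, from 72.0 to 151 bp), and 114 bp apart in the regions of all 8 tissues. No sequence is shown, since no genome of the files' build was used here.

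H3K27ac itself was of middling strength where it was called. In acetylated tissues the median percentile within the list was 57.6 ± 4.86 (SD, n = 8) and the peak length 607 ± 74.2 bp, against 87.2 ± 2.24 and 1174 ± 166 bp in regions of all 8 tissues. By list it ranged from 49.4 (kidney replicate 1) to 73.4 (liver replicate 2). Unmatched peaks were weaker in all 16 lists, from 36.5 in liver replicate 1 to 55.0 in liver replicate 2. H3K27ac chose the regions, so these values carry no test.

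Along the number of acetylated tissues, regions just inside and just outside the rule differed by small steps. At 4 acetylated tissues the H3K4me3 percentile was 51.1 ± 4.59 and the H3K27ac percentile 60.5 ± 4.68, and at 5 tissues 54.3 ± 4.50 and 62.6 ± 4.97 (SD, n = 8). At 2 tissues they were 45.7 ± 5.16 and 54.3 ± 5.84, and at 1 tissue 42.6 ± 4.89 and 52.7 ± 7.49. Another 522 regions had acetylation in 2 to 4 tissues but H3K4me3 in only 7, and their H3K4me3 percentile was 31.6 ± 4.53, against 48.2 ± 4.92 in the 1604. A missing H3K4me3 peak chose these 522, so their lower H3K4me3 percentile is a description. The missing tissue was heart in 264 of them and spleen in 167, and H3K27ac was reproducible in the missing tissue in 38 and 18 of these. Heart had a single H3K4me3 library, so 1 list alone decided there.

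Acetylated regions had more enhancer-like regions of the same tissue within 50 kb than regions acetylated only elsewhere. Enhancers are distal elements that carry H3K27ac with little H3K4me3. Enhancer-like here means reproducible H3K27ac of the tissue that met no H3K4me3 in any library. No minimum distance was set, so H3K27ac peaks close beside a region were counted too. The H3K27ac calls of the same tissue define both the acetylated regions and these neighbours. In liver the acetylated regions had a mean of 1.01 enhancer-like liver regions within 50 kb and the others 0.491. Skeletal muscle had 0.886 and 0.513, colon 0.871 and 0.359, spleen 0.704 and 0.407, and stomach 0.563 and 0.313. The numbers were lower in kidney (0.460 and 0.323), pancreas (0.447 and 0.358) and heart (0.223 and 0.175). The acetylated regions had more in 8 of 8 tissues, with means of 0.646 ± 0.269 and 0.368 ± 0.107 and a difference of 0.278 ± 0.183 (SD, n = 8). The exact permutation test gave p = 0.00781 and an adjusted p of 0.0125. The number of enhancer-like regions depends on the length of the H3K27ac list. Within 25 kb the difference was already 0.231 (exact permutation test, n = 8, p = 0.00781). On lists cut to their 20000 strongest peaks the difference was 0.0902 (exact permutation test, n = 8, p = 0.0156), and in the 80 regions without unmatched peaks it was 0.428 (p = 0.0469). Those 80 held from 7 (spleen) to 46 (pancreas) acetylated regions per tissue. The other classes had a gap in the same direction, with 0.566 and 0.337 in regions acetylated in 1 tissue and 0.602 and 0.449 in those acetylated in 5 to 7, which were not tested.

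In this measure, regions with an unmatched H3K27ac peak lay below the acetylated ones in each of the 8 tissues, and did not pass the test against those without a peak. Colon had 0.320 neighbours with no peak, 0.423 with an unmatched peak and 0.871 with acetylation, and liver 0.380, 0.529 and 1.01. In skeletal muscle the values were 0.528, 0.490 and 0.886. The unmatched state differed from no peak by 0.0380 ± 0.0823 neighbours (higher in 4 of 8 tissues, exact permutation test, p = 0.234), and the acetylated state from the unmatched one by 0.259 ± 0.163 (8 of 8 tissues, exact permutation test, p = 0.00781). Both tests were added after the data were seen and are not adjusted. The share of regions with at least 1 such neighbour was 46.2% for regions acetylated in liver and 17.4% for those with no peak there, and 42.3% and 16.6% in colon.

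**Figure D5:**
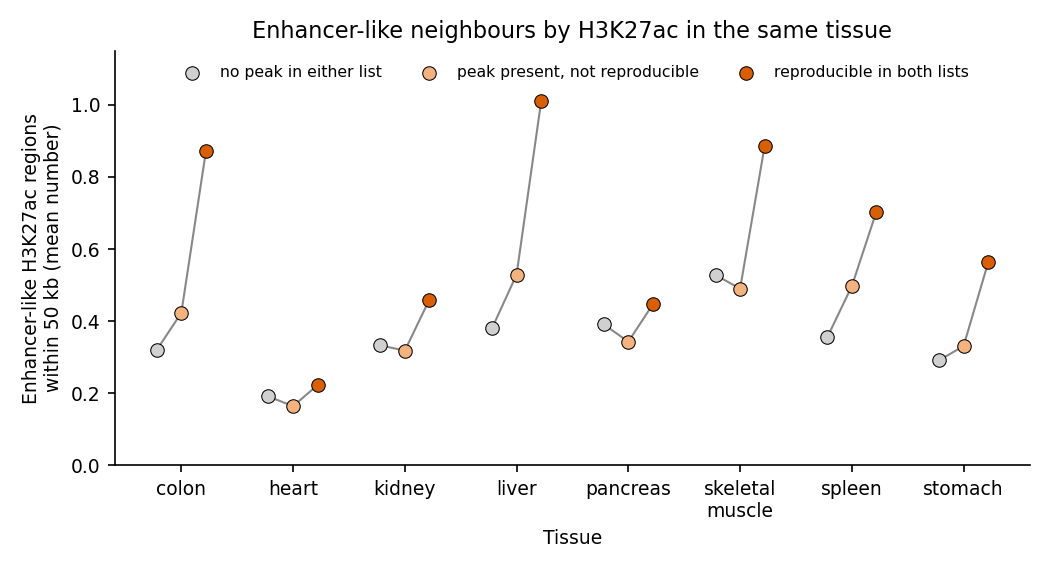
Mean number of enhancer-like H3K27ac regions of the same tissue within 50 kb (y axis) of the 1604 regions in each tissue (x axis), split by the state of H3K27ac at the region. The reproducible state is the highest point in each of the 8 tissues, up to 1.01 in liver.

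Of the 80 regions without H3K27ac in any list of the other tissues, 28 also had H3K4me3 in all 15 libraries and lay on assembled chromosomes. From these, 20 were taken by the lowest H3K27ac percentile over the libraries of their acetylated tissues: the 4 highest at each of 2, 3 and 4 tissues, and the highest remaining one for each tissue. Their lengths ran from 1072 to 10180 bp. The median H3K4me3 percentile was higher in the acetylated than in the other tissues in 16 of the 20 and the peak length in 17. In 1 of the 20 the H3K4me3 percentiles of the groups did not overlap. These counts compare libraries and were not made over all regions. In the tissue-level measure given above, 77.4% of the 1604 had higher H3K4me3 in acetylated tissues, with a background of 71.8%. Every acetylated tissue lay above every other in 9.23%, with a background of 17.8%. The tissue-level measure centres each list and averages libraries, so its shares are not a like background for the counts of the 20. The count for peak length has no background here. Whether the 20 are set apart was not tested. These regions were chosen for their H3K27ac, so its values are a description.

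The first region of 2 tissues lay at chromosome 10, 29988832 to 29996404 (calJac3), and was acetylated in liver and pancreas. Its H3K27ac percentile was 83.1 and 79.1 in the liver replicates and 86.9 and 81.7 in pancreas. The H3K4me3 percentile was 63.9 and 60.2 in liver and 60.1 and 67.8 in pancreas. In the 11 other libraries it ran from 13.3 (spleen replicate 1) to 58.4 (skeletal muscle replicate 2), with a median of 32.1. This was the region whose H3K4me3 groups did not overlap. Its H3K4me3 peaks were also far longer in liver and pancreas, with a median of 4190.0 bp against 833 bp elsewhere. No enhancer-like region of any tissue lay within 50 kb.

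The first region of 3 tissues lay at chromosome 17, 50051692 to 50053423, and was acetylated in colon, pancreas and stomach. Its H3K27ac percentile was 99.9 and 85.5 in colon, 86.0 and 89.7 in pancreas, and 93.0 and 81.4 in stomach. H3K4me3 had a median of 80.4 in the 6 libraries of these tissues (44.2 to 94.1) and of 49.3 in the 9 others (36.2 to 89.8). The groups overlapped, because pancreas replicate 1 was low at 44.2 and skeletal muscle replicate 2 high at 89.8.

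The second region of 3 tissues, at chromosome 14, 4691716 to 4693120, joined heart, pancreas and skeletal muscle. The H3K27ac percentile was 76.2 and 93.2 in heart, 86.0 and 73.0 in pancreas, and 70.9 and 86.3 in skeletal muscle. H3K4me3 had a median of 75.8 in the 5 libraries of these tissues (70.4 to 92.5) and of 57.8 in the 10 others (28.0 to 77.9). Pancreas and skeletal muscle each had 1 enhancer-like region within 50 kb, and no other tissue had any.

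Colon, kidney, pancreas and stomach were the acetylated tissues of the first 3 regions of 4 tissues. At chromosome 2, 131503871 to 131507495, the H3K27ac percentiles of the 8 libraries ran from 73.4 to 85.7. H3K4me3 there had a median of 79.9 in the same tissues (51.5 to 92.9) and of 52.0 in the 7 other libraries (16.9 to 83.6), with median lengths of 2186 and 651 bp. At chromosome 5, 72177997 to 72179984, the H3K4me3 medians were 68.0 (59.9 to 75.7) and 49.3 (27.1 to 64.9). At chromosome 4, 106453456 to 106455365, H3K27ac was strong, from 78.9 to 95.4, but H3K4me3 differed little, with medians of 45.3 and 39.9 and lengths of 536 and 563 bp.

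Other regions had acetylation in few tissues without stronger H3K4me3 there. The region at chromosome 3, 85450984 to 85452997, was acetylated in pancreas and spleen, with H3K27ac percentiles from 57.1 to 77.7. Its H3K4me3 median was 48.2 in these tissues, where pancreas replicate 1 was lowest and pancreas replicate 2 highest at 51.1, and 48.9 in the others (37.3 to 57.7), so the groups overlapped. The region at chromosome 3, 104106340 to 104108406, was acetylated in liver and spleen, and its H3K4me3 median was lower there, 52.2 against 62.0, as was the peak length, 1288 against 1728 bp. At chromosome 7, 120885960 to 120887620, acetylated in colon, pancreas and spleen, the H3K4me3 medians were 54.8 and 56.9. At chromosome 4, 99716565 to 99726744, acetylated in kidney, pancreas and skeletal muscle, they were 47.0 and 48.7, though the H3K4me3 peaks were longer in these tissues (2315 against 892 bp).

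Several of the 20 regions lay among enhancer-like regions of their own tissues. The region at chromosome 6, 8542144 to 8543825, acetylated in heart, liver and skeletal muscle, had 5 within 50 kb in skeletal muscle, 4 in liver and none in heart. It had 2 in kidney. Each tissue was counted on its own, so a place acetylated in 2 tissues counts in each. The region at chromosome 16, 15474366 to 15477701, acetylated in colon, liver and pancreas, had 5, all in liver, and 1 elsewhere. Of the 20 regions 12 had more such neighbours in acetylated than in other tissues, 1 had fewer, and 7 had none in any tissue. The same count was not made over the other regions, so it has no background here and was not tested.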

How the data were processed

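Per the labels' protocols, 8 marmoset tissues were profiled by ChIP-seq with antibodies to H3K4me3 (ab8580) and H3K27ac (ab4729). Tools named, without their roles, in the submitters' processing notes are MACS2 2.1.1.20160309, bedtools 2.26, Bowtie 1.1.2 and SAMtools 1.3.1. Each of the 31 deposited files is the peak list of 1 library, and peak names carry calJac3, from which the build was taken, per the files. The use made of the inputs in peak calling is not stated in these sources.

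Per the file columns, the authors deposited for each peak a score, a fold enrichment (a ratio), −log10 p and −log10 q values and a summit position. The score was not used. The lowest −log10 p of a list lay between 5.09 and 6.03, and no depth is given, so precision rests on the number of tissues.

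Overlaps of at least 1 bp, merging (touching intervals joined) and ranks were computed with scipy 1.17.1 and numpy 2.4.6 under Python 3.11.15, and figures drawn with matplotlib 3.10.9. Each tissue gave 1 value, the mean over its libraries, and differences were tested over tissues by exact sign-flip permutation tests, two-sided, with Benjamini-Hochberg adjustment over 8 planned tests. Tests and interval code were tested on simulated data. The regions, their rule and the tests were chosen with earlier results of these data known. The 20 named regions follow the rule given with them. Planned gene lists were not used, since no calJac3 annotation was used here. Alternatives are in the closing section.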

Additional observations from a re-analysis of the deposited data

Results flagged for a closer look

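The gap in H3K4me3 strength between regions acetylated in a tissue and other regions in it differed between the 2- to 4-tissue regions and the regions acetylated in 5 to 7 tissues, by -1.58 percentile points (two-sided exact sign-flip permutation test, n = 8, adjusted p = 0.0357). It drew attention because the test of the difference between these groups passed. It held under 4 of 11 alternative settings and in 18 of 31 analyses that each left out 1 library, and the cause was not tested. Single tissues that stand apart were looked for in 11 sets of tissue values, of which chance flags about 1 in 20, and none was found.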

How the results depend on the processing

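The gaps of H3K4me3 strength and length between acetylated and other regions within a tissue, the neighbouring enhancer-like regions, and both comparisons with the 8-tissue regions kept their direction and stayed past the threshold under every alternative tried. Their values ranged from 7.12 to 15.9 percentile points, 120.0 to 399.9 bp, 0.0902 to 0.463 regions, -34.5 to -23.0 points and -546 to -379.8 bp. With 1 library left out at a time they ranged from 7.66 to 9.05, 144 to 163, 0.255 to 0.332, -30.8 to -28.0 and -504 to -431. The number of regions was 842 with H3K4me3 required in all 15 libraries, 80 with no H3K27ac peak allowed in other tissues, and 744 where a peak in 1 list counted (360 of them among the 1604), and 1285 to 1868 with 1 library left out. The replicate support difference was 8.38 points without the short H3K4me3 lists of pancreas and skeletal muscle (5 tissues, which cannot pass), and 4.79 to 8.90 with 1 library left out, and it is fixed by construction where all 15 libraries are required. The difference from the 5- to 7-tissue regions lost the threshold with the 20000 strongest peaks (-0.356), −log10 q from 5 upwards (-1.76), assembled chromosomes (-1.42), all 15 libraries (-2.08), means (-1.17) and −log10 p percentiles (-1.26). It turned to 1.01 without unmatched peaks, and ranged from -2.86 to -0.827 with 1 library left out. The summit difference passed with the 20000 strongest peaks (0.948), all 15 libraries (0.939) and without the short lists (0.830), and turned to -0.916 without unmatched peaks and -0.328 in the central 300 bp, with 0.510 to 1.2 when 1 library was left out, where it stayed short of the threshold in 19 of 31. The cause of these changes was not tested. Leaving out the short lists together, counting a peak in 1 list, and taking differences within 2-, 3- and 4-tissue regions (8.11 points, 159 bp, 0.275 regions) were chosen after seeing the data. With the replicate number as a block the values were 8.41 points, 149 bp, 0.666 points (summit), -1.54, -30.0 points and -469 bp, and no call changed. Same-numbered libraries deviated together weakly but in the positive direction in every pair of tissues (H3K4me3, r over regions between 0.0267 and 0.193 for 21 pairs of tissues, 8 of them over 0.1, and H3K27ac, between 0.00359 and 0.254 for 28 pairs, 11 over 0.1). Whether same-numbered libraries share an animal or a batch is not stated in the labels and was not tested. The main tests did not use the numbers as pairing. Depth is unknown, and an H3K27ac peak missing from a list may be a weak one.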

Other observations

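The X chromosome held a larger share of the 2- to 4-tissue regions than of broadly acetylated ones. It had 73 of the 1604 (4.55%), against 1.84% of regions acetylated in all 8 tissues, 3.32% of those in 5 to 7 and 2.91% of those in 1. Of the 329 regions on X with H3K4me3 in all 8 tissues, 22.2% were 2- to 4-tissue regions, the highest share of any chromosome, followed by 16.1% on chromosome 8 and 15.4% (2 of 13) on Y, and the lowest was 8.87% on chromosome 21. Of the 73 regions, 57 (78.1%) were acetylated in liver, where 53.7% of the regions on other chromosomes were, and 8 in heart, where 30.2% of the others were. In heart another 40 of the 73 (54.8%) had an unmatched H3K27ac peak, against 39.6% of the others. In liver 16 (21.9%) had an unmatched peak, against 34.3%. These shares were noticed in the data and not tested. The H3K4me3 percentile of the X regions was lower than that of the other 2- to 4-tissue regions in 7 of 8 tissues, by -5.32 ± 5.55 points (43.2 against 48.5, exact permutation test over tissues, two-sided, n = 8, unadjusted p = 0.0391, chosen after the values were seen). The exception was liver, with 55.4 on X and 49.8 elsewhere, and the widest gap was in skeletal muscle, with 36.6 and 50.3.

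Regions acetylated in fewer tissues lay farther from broadly acetylated promoters. The median distance to the nearest region acetylated in all 8 tissues was 125 kb for regions of 1 tissue, 103 kb for the 2- to 4-tissue regions, 70.5 kb for regions of 5 to 7 tissues and 59.7 kb among the 8-tissue regions themselves. The shares within 5 kb were 6.95%, 7.17%, 11.3% and 12.3%. In their acetylated tissues the 2- to 4-tissue regions had 0.646 ± 0.269 enhancer-like neighbours within 50 kb, against 0.566 ± 0.330 for regions of 1 tissue, 0.602 ± 0.255 for regions of 5 to 7 tissues and 0.485 ± 0.224 for those of all 8 (SD, n = 8), differences that were not tested.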
